A study of Homo sapiens with 6 samples.

Results

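DPF3a-alone sites were the DPF3a ChIP-seq peaks of 786-O cells that lay away from annotated transcript starts and shared no base with a SMAD4 or p300 peak. They were chosen from the deposited peak lists by 2 criteria, an overlap of not even 1 bp with either other list and a summit more than 1000 bp from every GENCODE transcript start on hg38. This left 14969 of the 51530 DPF3a peaks, and 14969 of the 38827 DPF3a peaks that were distal in this sense. The other distal peaks were 18998 that touched a SMAD4 but no p300 peak (called SMAD4-touching sites here), 4592 that touched both (dual-touching sites) and 268 that touched p300 alone. A further 1317 DPF3a peaks that touched neither factor lay within 1000 bp of a start. 786-O is an established clear cell renal cell carcinoma line, and each of the 3 factors was profiled in 2 replicate libraries. DPF3a was precipitated through its HA tag from cells that overexpress HA-DPF3a and were fixed with DSG and formaldehyde, whereas SMAD4 and p300 were precipitated with antibodies to the endogenous proteins after formaldehyde alone. The tagged protein is therefore present above its natural level in the DPF3a libraries, and the labels do not state whether the cells of the SMAD4 and p300 libraries carried HA-DPF3a. As deposited, each factor has 1 list for its 2 replicate libraries, so the spread between replicates could not be measured. All intervals below are 95% intervals that cover counting error over peaks only.

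DPF3 is a subunit of the SWI/SNF (BAF) chromatin remodelling complexes, which slide and evict nucleosomes, and DPF3a is its shorter splice isoform. According to the paper, the tandem PHD domain that reads histone tails lies in the C-terminus of DPF3b, and DPF3a has a different C-terminus. SMAD4 is the common partner of the receptor-activated SMADs of TGF-beta and BMP signalling, and p300 is a histone acetyltransferase that marks active enhancers. BAF complexes are known to act at distal enhancers together with sequence-specific factors, among them AP-1, a dimer of FOS and JUN family proteins that binds TGACTCA. TEAD factors, which carry the YAP and TAZ coactivators to DNA, bind ACATTCC, and RUNX factors bind TGTGGTT.

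The sequences under the highest DPF3a-alone sites are shown first because the occurrence of AP-1 letters is the measure that the comparisons below turn on. Each run covers the summit base and 50 bases to either side of it on the plus strand of hg38, and capitals mark a match to the AP-1, TEAD or RUNX consensus on either strand (the reverse complement is TGAGTCA for AP-1, GGAATGT for TEAD and AACCACA for RUNX). Among the highest sites with an AP-1 match that lay away from annotated UTRs, the 5 shown were chrX:139106223-139106323 in an intron of FGF13, which encodes an intracellular fibroblast growth factor homolog, chrX:128020886-128020986 between genes 31467 bp from the start of ACTRT1, chr12:4824586-4824686 in an exon of a transcript inside GALNT8, chr18:70181215-70181315 in an intron of RTTN, which encodes a centriole protein, and chr2:217551677-217551777 in an intron of a non-coding gene.
FGF13 intron: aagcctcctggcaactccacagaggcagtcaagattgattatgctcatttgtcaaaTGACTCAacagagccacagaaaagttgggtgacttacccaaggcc
Between genes near ACTRT1: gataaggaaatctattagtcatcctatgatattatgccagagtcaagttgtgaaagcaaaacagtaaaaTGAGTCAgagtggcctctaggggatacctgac
Exon inside GALNT8: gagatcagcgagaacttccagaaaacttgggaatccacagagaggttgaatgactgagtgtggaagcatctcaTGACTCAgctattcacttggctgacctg
RTTN intron: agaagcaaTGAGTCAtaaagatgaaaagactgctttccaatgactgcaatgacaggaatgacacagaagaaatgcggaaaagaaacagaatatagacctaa
Non-coding intron with AP-1 and TEAD: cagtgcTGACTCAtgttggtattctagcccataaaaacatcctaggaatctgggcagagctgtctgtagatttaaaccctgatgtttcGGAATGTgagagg
The 3 highest without an AP-1 match were chr18:61529134-61529234 in an intron of CDH20, which encodes a cadherin, chr3:53464588-53464688 in an intron of CACNA1D, which encodes a voltage-gated calcium channel subunit, and chr2:175742518-175742618 in an intron of a non-coding gene.
CDH20 intron: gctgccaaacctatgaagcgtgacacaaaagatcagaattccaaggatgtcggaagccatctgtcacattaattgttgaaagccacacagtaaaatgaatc
CACNA1D intron: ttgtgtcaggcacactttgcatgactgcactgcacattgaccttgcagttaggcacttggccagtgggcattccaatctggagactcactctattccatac
Non-coding intron with RUNX: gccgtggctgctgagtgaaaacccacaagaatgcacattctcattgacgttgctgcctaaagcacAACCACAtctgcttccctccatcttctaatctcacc

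In these runs the AP-1 letters stood on both sides of the summit and in both orientations. The last site of the first set also held the TEAD letters, and the last of the second set held the RUNX letters. DPF3a fold enrichment, the ratio of the summit pileup to the local background with 1 read added to each, was 16 at the FGF13 site, with 42 reads at the summit, and 15.1 at the RTTN site, with 52 reads. It was 19.2 at the CDH20 site, with 88 reads, the highest of all DPF3a-alone sites. The nearest SMAD4 peak lay 46436 bp from the FGF13 site, 23996 bp from the RTTN site and 39623 bp from the CDH20 site.

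DPF3a-alone sites were the weaker, narrower and more AT-rich end of the distal DPF3a list. Their median fold enrichment was 6.06 (quartiles 5.28 and 7.52), against 7.94 at SMAD4-touching and 9.56 at dual-touching sites. The median summit held 18 reads over a local background of 1.88 reads, against 34 over 3.26 and 53 over 4.68. Median widths were 404, 560 and 678 bp. Peak strength and width come from the readout that chose the sites, and these values are a description with no test. Whether weak or narrow peaks missed overlaps more often was not tested. All distal DPF3a peaks were split into 4 bins of equal size by fold enrichment, and from the weakest to the strongest bin DPF3a-alone sites made up 57.6%, 50.5%, 32.7% and 13.5%. The promoter-side peaks that touched neither factor were as low, with a median fold enrichment of 5.76 and 18 reads at the summit.

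**Figure D1:**
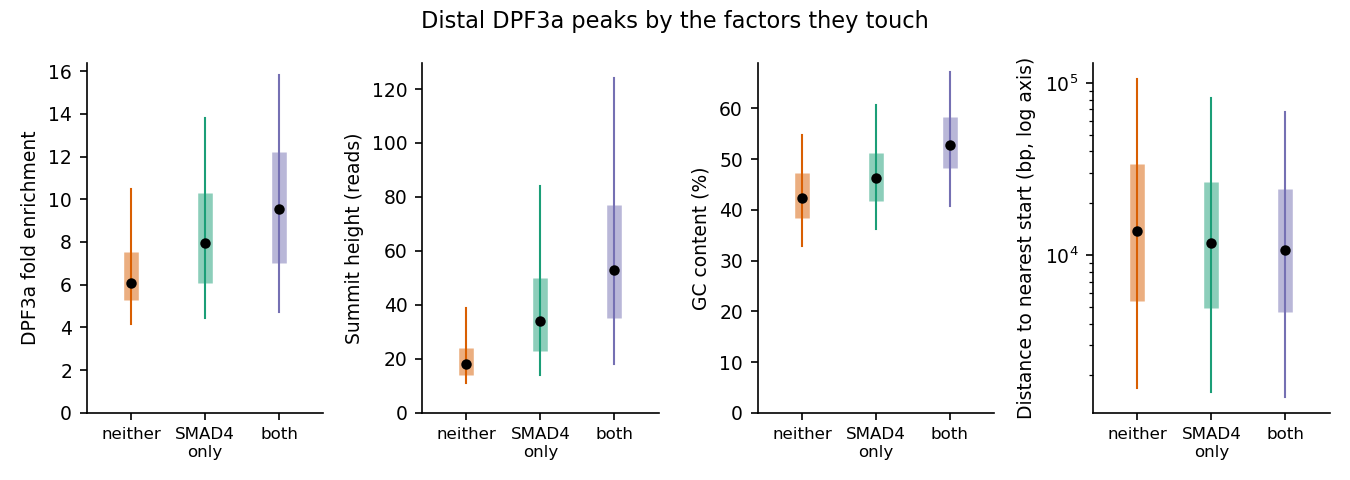
DPF3a fold enrichment, summit height in reads, GC content within 100 bp of the summit and distance to the nearest transcript start (log axis) for distal DPF3a peaks touching neither factor, SMAD4 only or both. Points are medians, thick bars the quartiles and thin lines the 5th to 95th percentiles over peaks, and median strength and GC are lowest and the median distance is longest for peaks touching neither.

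Base composition, which the choice of sites did not use, also differed. Median GC content within 100 bp of the summit was 42.3% (quartiles 38.3% and 47.3%), against 46.3% at SMAD4-touching and 52.7% at dual-touching sites. GC content was under 40% at 35.3% of DPF3a-alone sites (interval 34.6% to 36.1%), 18.3 percentage points more than at SMAD4-touching sites (17.3 to 19.2) and 31.3 points more than at dual-touching sites (30.3 to 32.3). No CpG dinucleotide was found in 24.2% of the windows, against 15.6% and 7.21%. Split at the quartiles of GC content, the lowest of 4 bins held 10590 distal DPF3a peaks and the highest 9657. DPF3a-alone sites made up 58.4% of the lowest bin and 19.3% of the highest. GC content and strength both moved with the class, and their separate parts were not tested.

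Along genes the sites were mostly intronic. Of 14965 sites on sequences with annotated starts, 63% had the summit in an intron, 3.87% in an exon and 33.1% between genes. For none of these 3 shares did the interval of the difference from SMAD4-touching sites exclude 0 (introns 1 point, interval -0.0332 to 2.04), whereas introns were 5.37 points more frequent than at dual-touching sites (3.75 to 7). The sites lay farther from starts. The median distance was 13694 bp, against 11696 and 10689 bp, and 15.9% lay over 50000 bp from any start, 4.35 points (3.61 to 5.09) more than SMAD4-touching and 7.02 points (5.99 to 8.01) more than dual-touching sites. Over 100000 bp away lay 5.58%, against 3.21% and 2.33%.

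AP-1 was the most frequent of the 32 consensus sequences searched at DPF3a-alone summits. TGACTCA stood within 50 bp of 3626 summits, 24.2% (23.5% to 24.9%), against 1.67% in a pair of 51-bp windows 500 bp to either side of the same summits, and against 22% of all DPF3a peaks. The letters were centred. In the 20-bp bin at the summit there were 5.8 matches per 100 sites, and 0.346 per bin at 400 bp and beyond. RUNX letters stood at 7.24% of DPF3a-alone sites, against 1.48% in the flanking windows and 7.04% of all DPF3a peaks, and TEAD letters at 5.48%, against 1.22% and 4.56%. At least 1 of the 3 was found at 34.5% (33.8% to 35.3%), and at 4.3% of the flanking window pairs. TEAD letters were less frequent at DPF3a-alone sites with AP-1, at 3.78% (3.2% to 4.45%), than at those without, at 6.03% (5.61% to 6.48%). The same held for RUNX letters, at 4.66% (4.02% to 5.4%) and 8.07% (7.58% to 8.58%).

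**Figure D2:**
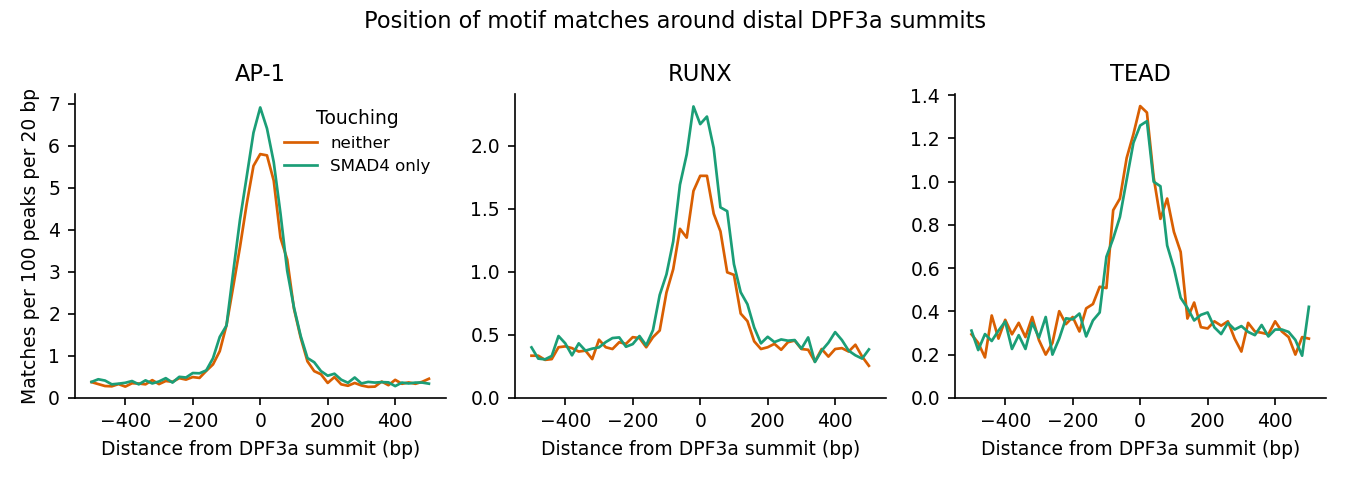
Matches to the AP-1, RUNX and TEAD consensus per 100 peaks in 20-bp bins (y axis, a separate scale for each panel) against distance from the DPF3a summit in bp, for distal peaks touching neither factor and touching SMAD4 only. All 3 motifs peak at the summit in both classes, with 5.8 AP-1, 1.76 RUNX and 1.35 TEAD matches per 100 peaks in the central bin for peaks touching neither.

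Letters that differ from the AP-1 consensus by a single base were counted after these values were seen. Of 19 such neighbours, 3 with at least 100 matches stood out by their ratio to the flanking windows among the 11343 DPF3a-alone sites without TGACTCA. The form TGAATCA was found at 9.53%, against 1.5% in the flanks, TGACTAA at 7.25%, against 1.28%, and TGAGTAA at 5.79%, against 1.38%. At least 1 of these 3 stood at 21.1% of the sites without the full consensus (20.4% to 21.9%), against 4.09% of their flanking windows and 19.4% of SMAD4-touching sites without it. The share of DPF3a-alone sites with none of AP-1, these neighbours, TEAD or RUNX was 51.2%.

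Taken over all strengths, AP-1 letters were somewhat less frequent at DPF3a-alone sites than at co-occupied ones, by 2.93 points against SMAD4-touching sites (27.2%; interval of the difference -3.86 to -2) and by 2.8 points against dual-touching sites (27%; -4.27 to -1.36). AP-1 shares moved with peak strength in every class. Across the 4 bins of fold enrichment they were 20.8%, 23.9%, 27.3% and 32.2% at DPF3a-alone sites, 18.7%, 22.3%, 28.2% and 34.4% at SMAD4-touching sites, and 11.7%, 18.3%, 25.2% and 34% at dual-touching sites. Averaged over the bins, the difference from SMAD4-touching sites was 0.202 points (-0.839 to 1.26), and that from dual-touching sites turned to 3.79 points in favour of DPF3a-alone sites (2.2 to 5.27). The average over bins hides opposite signs against SMAD4-touching sites, from 2.16 points in the weakest bin (0.47 to 3.82) over 1.69 (-0.0706 to 3.43) and -0.88 (-2.83 to 1.09) to -2.15 points in the strongest (-4.91 to 0.688), and only the interval of the weakest bin excluded 0. Against dual-touching sites the differences in the same order were 9.08 (5.88 to 11.8), 5.64 (2.35 to 8.62), 2.18 (-0.895 to 5.14) and -1.75 points (-4.91 to 1.46). The bins had equal weight, although the weakest held 528 dual-touching sites and the strongest 2304.

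**Figure D3:**
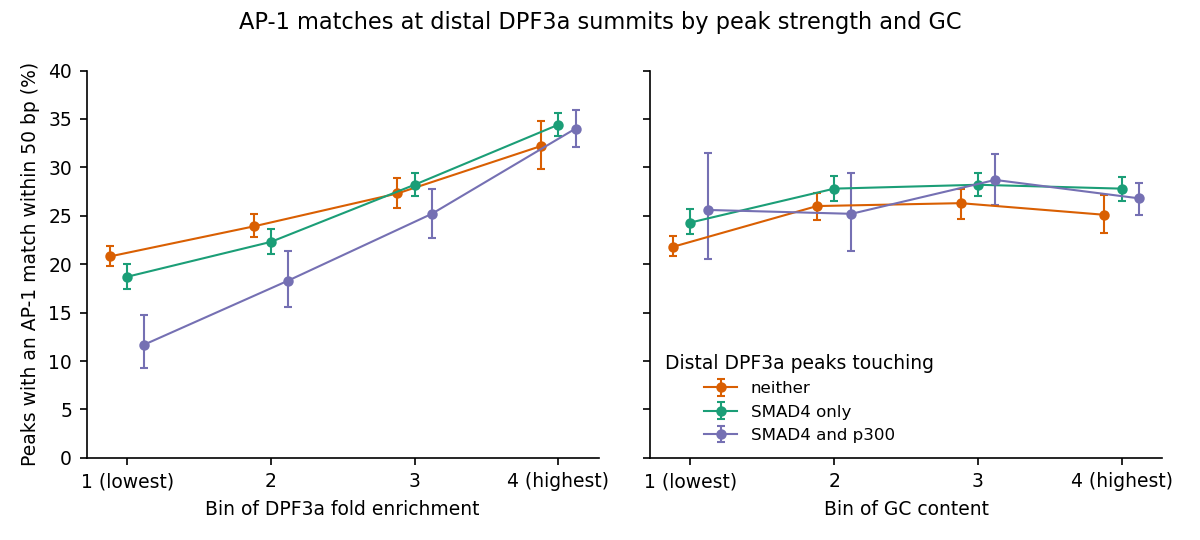
Share of distal DPF3a peaks with an AP-1 match within 50 bp of the summit (percent) by bin of DPF3a fold enrichment and by bin of GC content (4 bins each, split at the quartiles), for peaks touching neither factor, SMAD4 only or both, with 95% Wilson intervals. The share rises with strength in all 3 classes, from 20.8% to 32.2% for peaks touching neither, and lies above that of dual-touching peaks in the 2 weakest bins.

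The rise with strength was not seen among the first 100 DPF3a-alone sites, where the interval is wide. Ranked by fold enrichment, the first 100 sites held AP-1 letters in 24% (16.7% to 33.2%), the next 700 in 33.4% (30% to 37%), an interval that overlaps the first, the next 2400 in 30%, the next 3200 in 25.2% and the remainder in 21.5%. Of the 10 named below, the highest of chromosomes 1 to 22 and X, none held them. TEAD letters were found at 13% and RUNX letters at 12% of the first 100, against 4.66% and 6.48% of the sites ranked after 6400. Sites without AP-1 had a median fold enrichment of 5.99, the 3388 with 1 match 6.39 and the 238 with 2 or more 6.85.

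The 10 highest sites lay far from any SMAD4 peak, at 35221 bp or more. After the CDH20, CACNA1D and chromosome 2 sites printed above, they were a site in an intron of LAMA2, the laminin alpha-2 chain of muscle basement membrane (fold enrichment 17, summit chr6 129136923), of LCP1, the actin-bundling protein L-plastin (16.9, chr13 46165712), an intergenic site on chromosome 11 with TEAD letters (16.8, summit 116240858), a site in LHFPL6 (16.7, chr13 39528118), a site in a non-coding intron on chromosome 8 with RUNX letters (16.7, summit 90521008), a non-coding intron on chromosome 2 (16.3, summit 78025189) and an intron of ANO4, an anoctamin family membrane protein (16.1, chr12 101052305). Their summits held between 56 and 88 reads, and GC content ran from 39.8% to 52.7%. The site on chromosome 8 had its nearest p300 peak 8265 bp and its nearest SMAD4 peak 123719 bp away.

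Of the 32 consensus sequences, the shares of 14 differed from SMAD4-touching sites with an interval that excluded 0 (43.8% of those compared), 3 higher and 11 lower at DPF3a-alone sites. Against dual-touching sites it was again 14 (43.8%), 4 higher and 10 lower, but 7 within bins of GC content. Letters that SMADs are known to bind were among the lower ones. The tandem SMAD box CAGACAG stood at 1.84% of DPF3a-alone sites, against 3.17% of SMAD4-touching sites (difference -1.33 points, -1.66 to -1) and 3.31% of dual-touching sites (-1.47, -2.07 to -0.942). In the flanking windows of DPF3a-alone sites it stood at 1.61%, and the difference of 0.227 points from the summit (-0.0682 to 0.524) did not exclude 0. The palindrome GTCTAGAC was found at 0.0334%, against 0.116% of SMAD4-touching sites, 0.0218% of dual-touching sites (1 of 4592) and 0.0401% of the flanking windows. Within bins of GC content the tandem box difference from dual-touching sites was -0.278 points, with an interval that included 0. Since contact with SMAD4 defined the classes, a lower share of SMAD letters is close to the choice of sites.

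The difference of RUNX letters from SMAD4-touching sites was -2.36 points (interval -2.95 to -1.77 points) and that from dual-touching sites did not exceed counting error (0.229 points, -0.645 to 1.05). The differences of TEAD letters from both had intervals that included 0 (0.221 points, -0.26 to 0.708, and 0.454 points, -0.304 to 1.16). Averaged within bins of strength, TEAD letters were 1.13 points more frequent at DPF3a-alone than at SMAD4-touching sites (0.571 to 1.72) and 2.01 points more frequent than at dual-touching sites (1.15 to 2.75). Within bins of GC content the TEAD differences were 0.102 points (-0.397 to 0.623) and -0.437 points (-1.75 to 0.54). For RUNX letters the differences within bins of strength were -1.22 points from SMAD4-touching sites (-1.88 to -0.523) and 2.49 points from dual-touching sites (1.54 to 3.31). Within bins of GC content the RUNX differences were -3.26 points from SMAD4-touching sites (-3.84 to -2.66) and -2.5 points from dual-touching sites (-4.02 to -1.29).

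GC-rich letters were rare at DPF3a-alone sites. The KLF-SP box GGGGCGGGG, bound by zinc-finger factors of CpG-rich promoters, stood at 0.0735%, the same share as in the flanking windows, against 0.316% of SMAD4-touching and 0.762% of dual-touching sites. The core GTCACGC of the kidney lineage factor PAX8 stood at 0.474%, above the 0.127% of the flanks and below the 0.69% and 1.35% of SMAD4-touching and dual-touching sites, but its difference from SMAD4-touching sites was -0.0892 points within bins of strength and -0.0618 points within bins of GC content, with intervals that included 0. The E-box CAGCTG, bound by MYOD and TCF type helix-loop-helix factors, stood at 5.42%, against 3.35% in the flanks, 7.21% of SMAD4-touching and 9.17% of dual-touching sites. Within bins of GC content its differences were -0.546 points (-1.12 to 0.0518) and 0.183 points (-0.946 to 1.01). ETS letters AGGAAGT were found at 3.09%, against 1.87% in the flanks and 3.99% at SMAD4-touching sites. Higher at DPF3a-alone sites in both comparisons were the IRF letters (1.51%, against 1.11% and 0.98%), the OCT octamer ATGCAAAT (0.561%, against 0.358% and 0.24%) and the CEBP-ATF4 composite TGATGCAA (0.688%, against 0.521% and 0.348%). The IRF and octamer letters are AT-rich and were as frequent or more frequent in the flanking windows of DPF3a-alone sites, at 1.53% and 0.822%, whereas the CEBP-ATF4 letters stood at 0.301% there. Within bins of GC content the CEBP-ATF4 difference was 0.116 points from SMAD4-touching and 0.199 points from dual-touching sites, and both intervals included 0. Against their own flanks, 17 of the 32 were more frequent at the summit, and the octamer and the ZEB E-box CAGGTG were less frequent (CAGGTG 5.91%, against 7.68% in the flanks). A match has fewer possible start positions in the pair of 51-bp flanking windows than in the unbroken summit window. Flank shares therefore lean slightly low, which matters for the smallest differences, such as GATA letters (0.307 points, 0.0196 to 0.597).

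**Figure D4:**
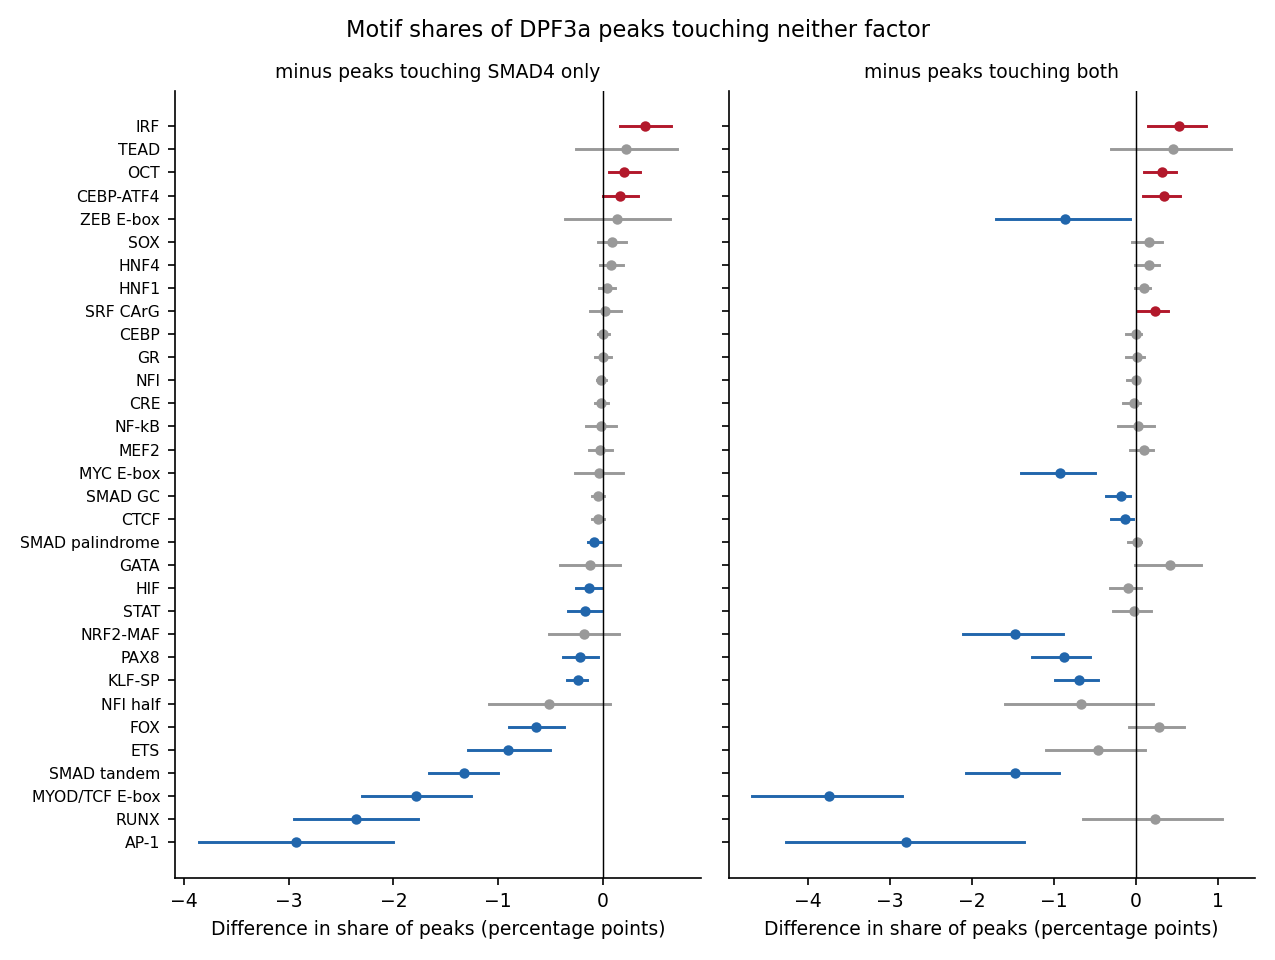
Difference in the share of peaks with each of 32 consensus sequences within 50 bp of the summit, in percentage points, for distal DPF3a peaks touching neither factor minus those touching SMAD4 only and minus those touching both. Points are differences with 95% Newcombe intervals, colored when the interval excludes 0 (blue lower, red higher), and 14 of 32 are colored in each panel.

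DPF3a-alone sites were spread thinly. The nearest other DPF3a summit lay at a median of 12822 bp, against 8831 bp for SMAD4-touching and 8781 bp for dual-touching sites, and it was itself a DPF3a-alone site for 39% of them, against 25.4% and 22.8%. The nearest SMAD4 or p300 peak lay at a median of 14866 bp (quartiles 5224 and 43792 bp), within 1000 bp of 5.91% of the sites and within 100000 bp of 87.7%. At the margins of the choice, the 3 sites nearest to another list lay 2, 6 and 7 bp from a p300 peak (1 being adjacent), on chromosomes 4 and 2, and the smallest overlap that kept a distal peak out was 9 bp. The sites nearest to a start, 1002 bp away, were in a non-coding intron on chromosome 17 and in CAST, with fold enrichments of 6.61 and 7.26. Just within the limit, at 1000 bp, were peaks near RASSF4 (4.91) and in NBR1 (6.18).

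The share of distal DPF3a peaks that touched neither factor differed among chromosomes. It was highest on chromosome 13, at 56.7% of 1019 (53.7% to 59.7%), and on X, at 50.9% of 923 (47.7% to 54.1%), and lowest on chromosomes 22, at 22.9% of 617 (19.7% to 26.3%), and 17, at 25.8% of 1222 (23.4% to 28.3%). Standardised over bins of fold enrichment and of GC content, the shares were 54.9%, 49.8%, 28.7% and 30.3%. For its length chromosome 13 held 5.9 DPF3a-alone sites per Mb, in a range from 3.03 on X to 6.12 on chromosome 10. It held 4.5 other distal DPF3a peaks and 8.06 SMAD4 peaks per Mb, each the lowest value after that of X (2.92 and 6.77). In windows of 10 Mb with at least 50 distal peaks, the highest shares were the 3 windows from 60 to 90 Mb of chromosome 13, at 84.8%, 77.3% and 86%.

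The ratio of the SMAD4 to the DPF3a local read background also differed among chromosomes. Where a SMAD4 summit lay within 200 bp of a distal DPF3a summit, this ratio had its lowest chromosome median on chromosome 13, at 1.05 (quartiles 0.822 and 1.33, 416 pairs), and its highest on chromosome 22, at 1.91 (1.53 and 2.4, 432 pairs). On the 6 chromosomes with a median over 1.5 (8, 11, 14, 17, 19 and 22), DPF3a-alone sites made up 22.9% to 37.8% of distal DPF3a peaks. On the 15 with a median between 1.2 and 1.5 they made up 33% to 50.9%, and on chromosomes 15 and 13, with medians of 1.12 and 1.05, 41.3% and 56.7%. X, with the second share in order, had a ratio of 1.33, in the middle of the range. Chromosome 16, with a low ratio of 1.27, had a share of 33.7%, and chromosome 14, with a high ratio of 1.82, had 37.8%. The part of the background in the chromosome shares was not tested.

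**Figure D5:**
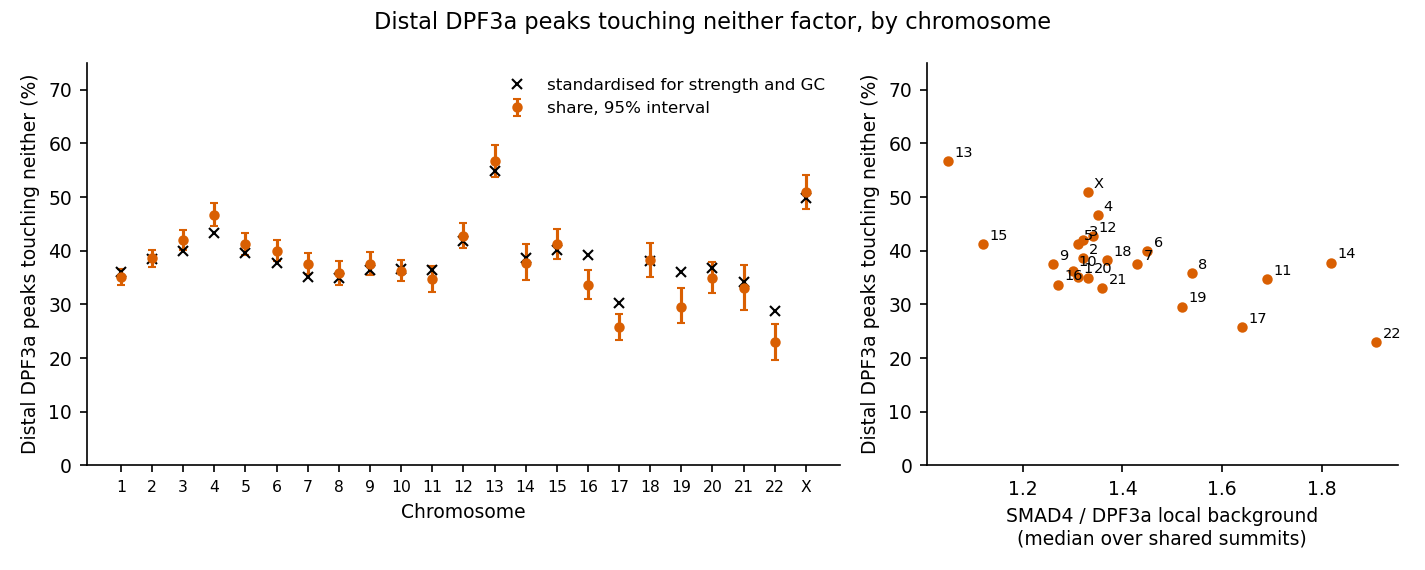
Left, share of distal DPF3a peaks that touched neither SMAD4 nor p300 (percent, with 95% Wilson intervals) by chromosome, with crosses for the share standardised over bins of fold enrichment and GC content. Right, the same share against the chromosome median of the SMAD4 to DPF3a ratio of local read background at shared summits, with chromosome 13 at the low end (1.05) and chromosome 22 at the high end (1.91).

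A gene was counted as holding a site when a summit lay in its body or up to 10000 bp upstream of its start. Of 19962 protein-coding genes, 4930 held at least 1 DPF3a-alone site (24.7%), of which 2975 held 1 and 35 held 10 or more, and 2028 held no other distal DPF3a peak. The 10 genes with the most sites, all of them long, were GPC6 (18), MACROD2 (17), TENM2 (16), PARD3B (15), KAZN (14), PTPRD (14), LRRC4C (13), STPG2 (13), FRMD4A (12) and KALRN (12), with bodies of 693 to 2299 kb. The list ends inside a tie, since LPP also held 12. GPC6 encodes a cell-surface glypican, TENM2 a teneurin adhesion receptor and PARD3B a cell polarity protein. PARD3B held 15 DPF3a-alone sites and 1 other distal DPF3a peak, whereas FRMD4A held 12 and 27. Picked after their values were seen, ADGRB3 and CLSTN2 with 11 sites each and CNTN5 with 10, all neuronal adhesion proteins or receptors, were the 3 genes with at least 10 sites and no other distal DPF3a peak. The 416 olfactory receptor genes, whose known role is in olfactory neurons, held a site in 8 cases (1.92%), with 1.15 sites per Mb against 5.88 over all protein-coding genes. Other distal DPF3a peaks were sparse there too, in 2.88% of these genes at 1.88 per Mb, and the median body was 2.45 kb.

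Among TGF-beta pathway genes, 17 of 40 held a DPF3a-alone site (42.5%, beside 24.7% of all protein-coding genes), and 21 held another distal DPF3a peak. Their median body was 66.3 kb, against 27.5 kb over all genes, and they held 7.19 DPF3a-alone sites per Mb against 5.88, and 16.4 other distal DPF3a peaks per Mb against 9.34. BMPR1B, a type I BMP receptor, held 3 sites, the strongest at chr4 95106784 with a fold enrichment of 15.2 and 61 reads. TGFB2, a TGF-beta ligand, and TGFBR3, the betaglycan coreceptor, also held 3 each, with strongest values of 6.14 and 5.6, and BMP6 held 2.

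SWI/SNF genes held a site in 10 of 28 cases (35.7%), at 7.35 sites per Mb, beside 24.7% and 5.88 per Mb over all protein-coding genes. Their median body was 46.9 kb, against 27.5 kb over all genes. Other distal DPF3a peaks stood in 42.9% of them, at 9.19 per Mb, beside 31.3% and 9.34 over all genes. DPF3 itself held 4, the strongest in its body at chr14 72781893 with a fold enrichment of 15.6 and 51 reads, and 6 other distal DPF3a peaks. The lowest of the 4 had a fold enrichment of 7.69. The cells of the DPF3a libraries carried an introduced HA-DPF3a coding sequence, and whether its reads add to the peaks in DPF3 was not tested. ARID1B, a subunit of canonical BAF complexes, held 5, with a strongest value of 7.83. ARID1A, its paralog, held 2, the strongest upstream of the gene at 10.5 with 71 reads, and the ATPase gene SMARCA4 held 2, at 5.19 and 5.15. Of the 11 AP-1 subunit genes BATF3 alone held a site by this rule (9.09%), with a fold enrichment of 8.91, and 4 held another distal DPF3a peak. Their median body was 8.53 kb, and the share was 18.2% with 50000 bp upstream counted and 36.4% when each site was given to its nearest start.

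Many cell adhesion and matrix genes have long bodies. Collagen and laminin genes held a site in 18 of 35 cases (51.4%), at 9.27 sites per Mb and a median body of 122 kb, beside 24.7% and 5.88 per Mb over all protein-coding genes. Other distal DPF3a peaks stood in 62.9% of them, at 15.9 per Mb, beside 31.3% and 9.34 over all genes. LAMA2 held 6 DPF3a-alone sites and no other distal DPF3a peak. COL15A1 also held 6, COL4A6, a basement membrane collagen, held 5 with a strongest value of 11.9, and LAMC1, the laminin gamma-1 chain, held 5. Integrin genes held a site in 12 of 26 cases (46.2%), at 7.2 sites per Mb and a median body of 76 kb, and 61.5% held another distal DPF3a peak. Among them were the collagen receptors ITGA2 with 4 DPF3a-alone sites and ITGA1 with 3. ITGAD held 2. For actin cytoskeleton and focal adhesion genes the count was 18 of 41 (43.9%) at 7.96 sites per Mb beside 19.2 other distal DPF3a peaks per Mb, with 12 sites in LPP, a zyxin family protein, 6 in PALLD, 6 in TLN2, a talin, and 3 in ACTN4. Matrix proteases and their inhibitors held a site in 12 of 37 cases (32.4%), with 2 each in ADAM12, ADAMTS6 and MMP16. Per Mb they held 4.86 DPF3a-alone sites, fewer than the 5.88 over all protein-coding genes, and 17.5 other distal DPF3a peaks, against 9.34.

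Of 7 transcription factors of the epithelial-mesenchymal transition, 3 held a site (42.9%, beside 24.7% of all protein-coding genes). ZEB1 held 3 DPF3a-alone sites and no other distal DPF3a peak, the strongest with a fold enrichment of 9.83 and 33 reads, and 2 of the 3 had AP-1 letters. SNAI1, in a body of 5.91 kb, held 2, at 4.75 and 3.93, and ZEB2 held 1. Of 18 renal lineage transcription factors 5 held a site (27.8%, near the share over all genes, and 66.7% by nearest start), with 4 in MECOM, 3 in TFCP2L1, 2 in HNF4G and 1 in EMX2. Of 20 hypoxia factors and targets 6 did (30%), at a median body of 40 kb, and 65% held another distal DPF3a peak, beside 31.3% of all genes. Per Mb the hypoxia genes held 4.81 DPF3a-alone sites, fewer than the 5.88 over all protein-coding genes, and 24 other distal DPF3a peaks, against 9.34. DPF3a-alone sites numbered 2 in EPAS1, which encodes HIF-2 alpha, and 1 each in BNIP3, CA12 and EGLN3. Of 20 inflammatory cytokines and chemokines, CSF1 alone held a DPF3a-alone site by this rule (5%). The share was 25% with 50000 bp upstream counted and 50% when each site was given to its nearest start. Of 8 cell movement genes that the study named, 5 held a site (62.5%, interval 30.6% to 86.3%, beside 24.7% of all protein-coding genes), and COL1A1, MMP1 and MMP2 held none. Their median body was 73.6 kb, against 27.5 kb over all genes, and 62.5% of them held another distal DPF3a peak. WNT7B held 1, at 3.57, beside 4 other distal DPF3a peaks, and COL6A3 held 1, at 6.84. These are positions of peaks, and no expression was measured in these libraries.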

How the data were processed

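ChIP-seq of HA-tagged DPF3a, SMAD4 and p300 in 786-O cells gave 1 deposited peak list per factor, each made from 2 replicates in a way not given in the sources used here. No control library is named. The authors trimmed adapters, mapped reads to hg38 with Bowtie2 2.3.5.1, removed reads with a mapping quality under 30, mitochondrial reads and duplicates, called peaks with MACS2 2.2.5 and kept peaks with a score over 50. Read totals are not in the lists. The score deposited by the authors is derived from the q-value, and the lowest is 51. The deposited fold enrichment divides summit pileup by local background, a ratio with 1 read added to each. Values of −log10 p and −log10 q were deposited for every peak. Values were used within a list, except the ratio of SMAD4 to DPF3a background, which was compared among chromosomes only.

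Summit height and background in reads were recovered for each peak from the deposited fold enrichment and −log10 p, with an error in −log10 p of at most 6.9e-04. Weak peaks are those of few reads, where counting error weighs most, and the part of missed overlaps was not tested. Overlap calls were the same as with bedtools 2.31.1 in 6 of 6 rules. Starts and classes came from GENCODE 44 (252835 transcripts), and sequence was read from hg38 with pysam 0.24.0. Motif matches were exact, on both strands, within 50 bp of the summit, with a pair of 51-bp windows 500 bp away as background. The reference was in upper case, so repeat-masked bases were not counted. Shares carry Wilson intervals and differences Newcombe intervals (scipy 1.17.1, own code checked on simulated data), and a difference was called when its 95% interval excluded 0. Peaks are not replicates and no p-value was computed. Averages over bins of strength or GC content gave each bin the same weight.

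The sites, gene lists and motifs were chosen with earlier results of these data known. Named by rule were the 10 sites of highest fold enrichment on chromosomes 1 to 22 and X over 20 kb from an assembly gap, the 10 genes with the most sites, up to 4 genes per list, and the sites at the margins. Printed sequences were taken from the 6 highest with (1 of them is not reported here) and the 3 highest without an AP-1 match, outside chromosome 8 and annotated UTRs. Alternatives were other score limits, overlap rules, start definitions, windows and strata.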

Additional observations from a re-analysis of the deposited data

How the results depend on the processing

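No paired analysis was possible because each factor has 1 list for its replicate libraries, without a replicate number. Leaving out a replicate was not possible either. With DPF3a scores over 100 and over 200, the number of sites fell from 14969 to 6323 and 1507, the AP-1 share rose from 24.2% to 27.8% and 30.7%, the intergenic share from 33.1% to 34% and 35%, and the share over 10000 bp from a start from 59.3% to 61.7% and 65.5%. At scores over 100 the share of distal DPF3a peaks that touched neither factor was 45.7% on chromosome 13 and 13.8% on chromosome 22. Without that score limit the share on chromosome 22 was 22.9%, and 28.7% when standardised for strength and GC content. The number of sites also depended on how the other 2 lists were used. It was 21756 with SMAD4 and p300 scores over 100, against 14969. It was 17138 when a touch needed an overlap of 0.5 of both peaks, and 14085 when one within 1000 bp counted. With protein-coding genes and their starts only, 48.5% of sites were intergenic and 74.3% over 10000 bp from a start. The AP-1 share was 37.8% within 100 bp and 12.4% within 25 bp. The AP-1 difference from SMAD4-touching sites was -1.94 points with scores over 200, where the interval included 0, and turned to 0.202 points within bins of fold enrichment. The AP-1 difference from dual-touching sites was -1.2 and -0.582 points with scores over 100 and 200, -1.57 with SMAD4 and p300 scores over 100, -1.77 within bins of GC content, all with intervals that included 0, and 3.79 within bins of fold enrichment. Within bins of GC content, 7 rather than 14 motif shares differed from dual-touching sites, and the differences turned to -2.5 points for RUNX, -0.437 for TEAD and 0.183 for the E-box CAGCTG. RUNX also turned to -0.0523 points with windows of 100 bp. The ratio of median strength to that of SMAD4-touching sites was 0.764 by fold enrichment and 0.461 by −log10 q. Strata by GC content, height in reads and standardised chromosome shares were chosen after seeing the data. For values that turned or lost their call the cause was not tested. Among protein-coding genes, 36.6% held a site with 50000 bp upstream counted and 32.7% by nearest start. Counts for gene lists moved by over 1.5 times, with 25% and 50% of inflammatory genes, 18.2% and 36.4% of AP-1 subunit genes, 71.4% and 100% of epithelial-mesenchymal transition factors, and 9.38% and 6.97% of olfactory receptor genes under these 2 rules, 54.1% of matrix proteases and inhibitors with 50000 bp, and 67.5% of TGF-beta pathway and 66.7% of renal lineage genes by nearest start. Depth limits the weakest sites, whose summits held 11 reads.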
